A study of Homo sapiens with 82 samples.

Results

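RNA polymerase II (RNAP2) occupancy was compared between HT29 cells treated with rosiglitazone for 48 h and HT29 cells given the DMSO carrier, using the chromatin immunoprecipitation sequencing (ChIP-seq) peak lists of these 2 groups. Each group held 2 libraries, 4 of the 10 RNAP2 libraries of the study, and their peaks merged into 45573 regions. A site was a merged span of overlapping peaks that held a peak of both libraries of a group. By this rule there were 26581 RNAP2 sites under DMSO and 21817 after 48 h of rosiglitazone. HT29 is an established human colorectal adenocarcinoma line, and every sample was this 1 line. Rosiglitazone, a PPARG agonist, and GW3965, an LXR agonist, were each given at 10 µM. Beside the compared groups, RNAP2 lists were used for 24 h of rosiglitazone and for 24 and 48 h of GW3965, H3K27ac lists for DMSO and for 24 and 48 h of rosiglitazone, PPARG lists for 2 and 48 h of rosiglitazone, and JunD lists for DMSO, with 2 libraries in every group. The labels gave no hour for the DMSO ChIP-seq cultures and did not say whether the libraries of a group came from separate cultures, so any p-value measures only the spread between these libraries.

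RNAP2 transcribes protein-coding genes and is found both at promoters, where it often pauses soon after initiation, and along the bodies of genes being elongated. It also occupies active promoter-distal enhancers. PPARG is a ligand-activated nuclear receptor that binds DNA as a heterodimer with RXR and directs genes of fatty acid storage and oxidation, and in the colonic epithelium it is known for its place in differentiation and lipid handling. Acetylation of histone H3 at lysine 27 (H3K27ac) marks active promoters and enhancers, and JunD is a subunit of the AP1 transcription factor. A longer peak of RNAP2 can be a longer stretch of occupied DNA or merely a deeper library, because the width and score of a called peak both move with sequencing depth, which the peak lists do not give.

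The DMSO libraries held 30638 and 35010 RNAP2 peaks covering 48.8 and 48.7 Mb, and the rosiglitazone libraries held 34742 and 29289 peaks covering 44.4 and 47.2 Mb. The median peak was 1228 and 1046 bp wide under DMSO and 908 and 1206 bp wide after rosiglitazone. The number of peaks overlapped between the groups, and the covered length was smaller in both rosiglitazone libraries (exact two-sided permutation p = 0.667 and 0.333, the latter being the smallest that 2 against 2 libraries allow). The rosiglitazone libraries were less alike than the DMSO libraries. Likeness was the number of regions with a peak of both libraries, as a share of the regions with a peak of either. These regions were merged over all RNAP2 libraries of the study. The share was 0.730 for the 2 DMSO libraries and 0.575 for the 2 rosiglitazone libraries. Rosiglitazone replicate 2 shared 0.658 and 0.629 with the DMSO libraries, more than it shared with rosiglitazone replicate 1, which shared 0.560 and 0.584 with them. The numbers of changed sites and their main shares are therefore given with and without each library, while distances, score ranks, named sites, single runs and neighbours are given for all 4 libraries alone. The RNAP2 and H3K27ac lists of a condition were called against 1 and the same input library, so that input and group, or a joint change of both marks, cannot be told apart. PPARG and JunD had inputs of their own.

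Most RNAP2 sites were found in both groups, and with all 4 libraries more sites were lost than gained. Of the 21817 rosiglitazone sites, 18594 overlapped a DMSO site by at least 1 bp and were called kept, and 3223 (14.8%) did not and were called gained. Of the 26581 DMSO sites, 7921 (29.8%) overlapped no rosiglitazone site and were called lost. A site could be called gained or lost because only 1 library of the other group fell short of a peak. Peaks of 1 DMSO library stood at 1808 gained sites, 657 of them in replicate 1 and 1151 in replicate 2, and peaks of 1 rosiglitazone library stood at 5452 lost sites, 2245 of them in replicate 1 and 3207 in replicate 2. With the stricter demand that no library of the other group held a peak, 1406 sites (6.44% of rosiglitazone sites) were gained and 2451 (9.22% of DMSO sites) were lost. These are called strictly gained and strictly lost. Regions with a peak in 1 of the 4 libraries alone entered neither class. They numbered 5865 and 2123 for rosiglitazone replicates 1 and 2, and 1741 and 3045 for DMSO replicates 1 and 2. The excess of losses thus holds for sites found in both libraries of a group, and not for all regions with a peak.

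**Figure D1:**
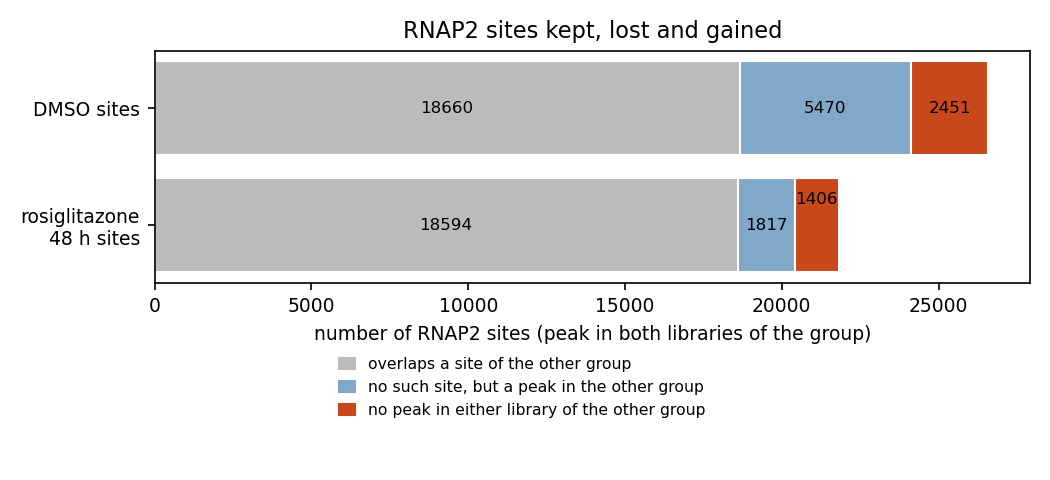
Number of RNAP2 sites (horizontal axis) of the DMSO and the 48 h rosiglitazone groups, where a site has a peak in both libraries of its group. Grey marks sites that overlap a site of the other group, blue those with a peak in the other group but no site, and red those with no peak in either library of the other group (2451 lost and 1406 gained).

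The balance of gains and losses moved when single libraries were left out. Without rosiglitazone replicate 1, 6901 sites were gained and 4731 lost, and without rosiglitazone replicate 2, 11867 were gained and 5679 lost, so that gains then outnumbered losses. Without DMSO replicate 1, 2093 were gained and 13857 lost, and without DMSO replicate 2, 2584 were gained and 10748 lost. A group reduced to 1 library has more sites because no second peak is asked for, and the other group's sites then overlap them more often. These shifts follow from that definition, so they cannot show whether the balance rests on 1 library. With equal numbers of peaks per library, 3245 sites were gained and 7120 lost. Strict gains and losses were 3615 and 4731 without rosiglitazone replicate 1, and 7640 and 5679 without rosiglitazone replicate 2.

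Changed sites were weaker and narrower than kept ones. The caller's score is minus 10 times the log10 of the peak's p-value, with 100 as the lowest listed, and a site's score was taken from the lower of its 2 libraries. The median score was 131.31 at strictly gained sites, 129.2 at strictly lost sites and 289.765 at kept sites. Median widths were 1030 bp, 943 bp and 1521 bp in the same order. Where at least 1 library of the other group did hold a peak, the peaks there had a median score of 145.02 at gained sites (n = 1817) and 187.435 at lost sites (n = 5470).

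Strictly gained sites reached a lower score of 1196.37 and strictly lost sites reached 1069.71. The strongest 100 gained sites began at 244.73 and the strongest 100 lost sites at 251.05. As a share of all sites on a chromosome, strict gains ran from 2.93% on chromosome 19 to 9.35% on chromosome 8, and strict losses from 6.69% on chromosome 19 to 15.8% on chromosome 21.

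Strictly gained sites carried more H3K27ac after rosiglitazone than before it. An H3K27ac site, again one found in both libraries, overlapped 10.5% of them under DMSO (Wilson 95% interval 9.03 to 12.2), 24.7% at 24 h (22.5 to 27) and 27.5% at 48 h (25.3 to 29.9). Strictly lost sites had 32.6% (30.8 to 34.5) under DMSO, 29.5% (27.8 to 31.4) at 24 h and 25.3% (23.6 to 27.1) at 48 h. The intervals of the DMSO and 48 h shares did not overlap in either class. Kept sites also rose, from 66.8% (66.1 to 67.5) under DMSO to 73.9% at 24 h and 76.0% (75.4 to 76.6) at 48 h, so gained sites shared their direction with kept sites. The fall at lost sites was not found under every definition or without each library. Over all 7921 lost sites the shares were 44.5%, 47.6% and 45.5% at DMSO, 24 h and 48 h, and without rosiglitazone replicate 2 the 5679 strictly lost sites had 36.3% under DMSO and 38.7% at 48 h. The rise at strictly gained sites was found without each library in turn, from 8.44% to 14.3% without rosiglitazone replicate 2 and from 13.3% to 31.98% without rosiglitazone replicate 1. These intervals and all others given here cover counting error only, and sites of 1 library pair are not replicates of a condition.

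H3K27ac sites that themselves changed were also split between the classes. H3K27ac gained 5665 sites and lost 2254 sites by 48 h. Of the strictly gained RNAP2 sites, 217 (15.4%) overlapped a gained H3K27ac site and 3 (0.213%) overlapped a lost one. Of the strictly lost RNAP2 sites, 96 (3.92%) overlapped a gained H3K27ac site and 272 (11.1%) a lost one, but over all 7921 lost sites these were 641 (8.09%) and 576 (7.27%), the opposite order. Kept RNAP2 sites stood between them with 10.6% and 1.79%. At 48 h the greater part of both changed classes had no H3K27ac site. The part of the shared input library in this likeness of RNAP2 and H3K27ac was not tested.

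With all 4 libraries, PPARG at 48 h was least frequent at strictly lost sites, more frequent at strictly gained sites and most frequent at kept sites. It overlapped 16.3% of strictly gained sites (229 of 1406, interval 14.4 to 18.3), 4.12% of strictly lost sites (101 of 2451, interval 3.40 to 4.98) and 24.8% of kept sites (24.2 to 25.4). The order of gained and lost sites held without rosiglitazone replicate 1 (14.2% of 3615 and 4.25% of 4731). It turned around without rosiglitazone replicate 2 (4.90% of 7640 and 9.33% of 5679). A group reduced to 1 library needs no second peak, so this cannot show whether the order rested on that library. PPARG at 2 h hardly told the changed classes apart, with 19.0% of gained sites (17.0 to 21.1) and 16.6% of lost sites (15.2 to 18.1), and its intervals overlapped. PPARG sites of 2 h only overlapped 3.56% of strictly gained, 12.8% of strictly lost, 13.7% of kept and 13.8% of all DMSO sites, so the share at lost sites was near that of DMSO sites at large. PPARG was called against inputs other than those of RNAP2.

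The median distance to the nearest PPARG site of 48 h was 34.2 kb from a strictly gained site, 81.1 kb from a strictly lost site and 38.7 kb from a kept site. Within 10 kb of such a PPARG site lay 31.4% of strictly gained, 16.2% of strictly lost and 34.9% of kept sites. Strictly gained and kept sites thus differed little in distance, while strictly lost sites stood farther from PPARG. JunD, measured only under DMSO, overlapped 8.18% of strictly gained and 8% of strictly lost sites, with intervals of 6.86 to 9.73 and 6.99 to 9.14, against 34.9% of kept sites.

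**Figure D2:**
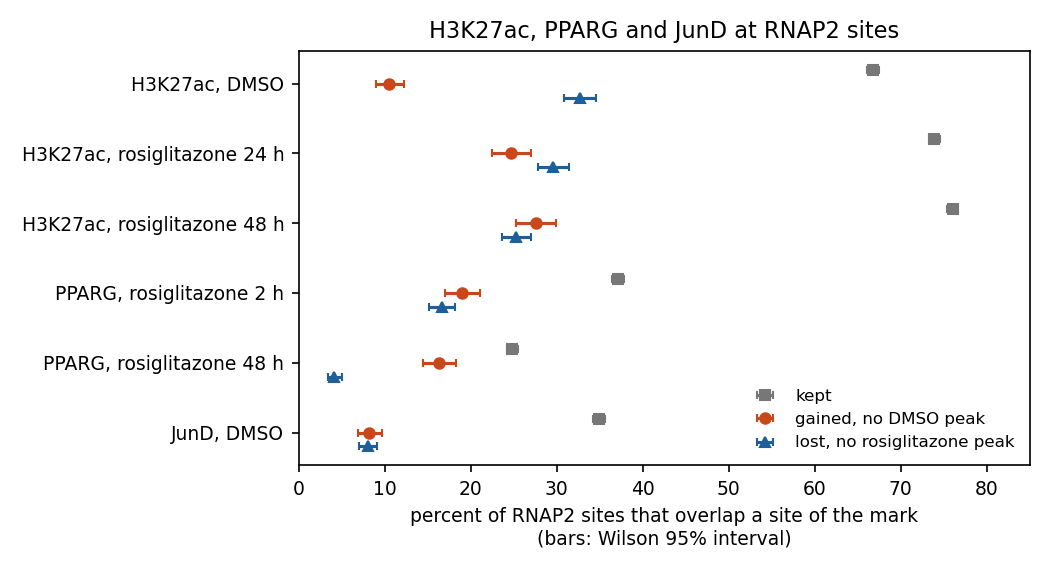
Percent of kept (grey squares), strictly gained (red circles) and strictly lost (blue triangles) RNAP2 sites that overlap a site of each mark on the vertical axis, with Wilson 95% intervals, from all 4 libraries. H3K27ac at gained sites moves from 10.5% to 27.5% with rosiglitazone and PPARG at 48 h is at 16.3% of gained and 4.12% of lost sites.

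The definition of a gained site and the choice of library bore on these shares. When a gained site only had to miss the DMSO sites, and not every DMSO peak, 34.0% of the 3223 gained sites had H3K27ac at 48 h, 15.9% had PPARG at 48 h and 20.3% had PPARG at 2 h. Without rosiglitazone replicate 2 the 11867 sites then gained had PPARG at 48 h at 6.13% and PPARG at 2 h at 8.39%, and without rosiglitazone replicate 1 the 6901 gained sites had 14.0% and 19.98%.

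Strictly gained sites with and without PPARG differed in several other readouts, and the first of these held without each library. Of the 229 with a PPARG site of 48 h, 66.8% (60.5 to 72.6) had H3K27ac at 48 h, against 19.9% (17.7 to 22.3) of the 1177 without. Leaving out each library in turn gave 55.6% to 67.4% with and 12.1% to 26.5% without PPARG. H3K27ac under DMSO stood at 16.6% and 9.35% of them. RNAP2 of 24 h of rosiglitazone was present at 70.7% (64.5 to 76.3) of those with PPARG and 57.8% (54.9 to 60.6) of those without. RNAP2 of 48 h of GW3965 had the opposite order, at 11.4% (7.87 to 16.1) and 25.4% (23.0 to 28.0). Gained sites on PPARG were also narrower, with a median of 910 bp against 1069 bp. PPARG and H3K27ac of 48 h thus stood together at 153 of the 1406 strictly gained sites. With and without PPARG, H3K27ac of 48 h was at 86.1% and 72.7% of kept and 38.6% and 24.7% of strictly lost sites. RNAP2 of 24 h of rosiglitazone was at 95.8% and 88.1%, and 50.5% and 21.2%. Neither difference was thus particular to gained sites. H3K27ac under DMSO had the opposite order at kept (64.2% and 67.6%) and strictly lost sites (27.7% and 32.9%).

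Among the 100 strictly gained sites of highest score, 11 overlapped PPARG at 48 h, 21 overlapped H3K27ac at 48 h and 20 overlapped JunD. At ranks 101 to 500, PPARG at 48 h was at 19.8% and H3K27ac at 29.5%, and at ranks 501 to 1406 they were at 15.3% and 27.4%. RNAP2 at 24 h of rosiglitazone was at 90 of the top 100, 69.5% of ranks 101 to 500 and 52.3% of ranks 501 to 1406, so stronger gained sites more often had it. Among strictly lost sites, the top 100 held PPARG at 48 h at 2 sites, PPARG at 2 h at 24 and H3K27ac under DMSO at 41.

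The 10 strongest strictly gained sites all had peaks in both libraries of 24 h rosiglitazone. The first, chr21:36224398-36232091 (hg19, as are all coordinates here), scored 3112.45 and 1196.37 at 48 h of rosiglitazone and 3100 and 1219.63 at 24 h. It had no peak in the DMSO libraries or in GW3965 replicate 1 of 24 h, and scores of 211.05, 270 and 109.39 in the other GW3965 libraries. The choice of site set its absence under DMSO and its high score at 48 h of rosiglitazone. At 24 h of rosiglitazone it was also high in both libraries, and under GW3965 it was low. The scores near 3100 are the ceiling of the caller.

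The site at chr9:19121849-19125801 was the one member of the 10 with H3K27ac. RNAP2 scored 926.62 and 725.12 there at 48 h of rosiglitazone, 703.51 and 735.01 at 24 h, and had no peak under DMSO or in any GW3965 library. H3K27ac had no peak under DMSO, scores of 104.8 and none at 24 h and 281.57 and 302.14 at 48 h. RNAP2 was thus present at 24 h, when H3K27ac was listed in 1 library at near the lowest score. Its neighbour at chr9:19112576-19115297 scored 1442.42 and 895.95 at 48 h and 1336.21 and 945.31 at 24 h, with no peak under DMSO and scores of 108.26, 148.94, none and 118.01 under GW3965.

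The other named gained sites were similar. Sites at chr9:75771062-75774721 and chr6:47250028-47255028 scored 2673.22 and 942.73, and 2760.53 and 936.26, at 48 h of rosiglitazone. The chr13:110401533-110405109 site, at 755.8 and 558.98, was the other one of the 10 with no GW3965 peak at all, and the remaining sites on chromosomes 6 and 8 lay between 551 and 1505. None of the 10 had a PPARG peak in any PPARG library, and peaks of both JunD libraries stood at 3 of them. Under GW3965 8 of the 10 had a peak in at least 1 library, none of them above 527.8.

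The strongest strictly lost site was chr21:42816199-42822627. It scored 1388.76 and 1069.71 under DMSO, 336.92 and 110.05 at 24 h of rosiglitazone and had no peak in either library at 48 h. GW3965 gave no peak at 24 h and scores of 483.73 and 243.7 at 48 h. Absence at 48 h of rosiglitazone and high scores under DMSO were set by the choice of site. Every score at 24 h of rosiglitazone and under GW3965 was below both DMSO scores.

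Lost sites fell into those with and without other marks. The first 6 of the 10 had no peak of H3K27ac, PPARG or JunD in any library. One of these, chr17:6678402-6680475, had 614.29 and 691.35 under DMSO and no peak in any of the other 8 RNAP2 libraries. At chr4:89363517-89367589 the scores were 1032.8 and 760.21 under DMSO, 425.19 and none at 24 h of rosiglitazone, and no GW3965 library had a peak. At chr1:79130228-79132433 the scores were 815.36 and 877.22 under DMSO and 839.69 and 623.97 at 48 h of GW3965, so this site kept its RNAP2 at 48 h of GW3965, unlike the chromosome 17 and 4 sites, which had no peak in any GW3965 library.

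The site at chr8:126655180-126657720 lost RNAP2 while H3K27ac stayed. RNAP2 scored 524.57 and 786.39 there under DMSO, 111.75 and none at 24 h of rosiglitazone and none at 48 h. H3K27ac scored 465.2 and 1112.98 under DMSO, 1852.15 and 670.14 at 24 h and 2412.85 and 3100 at 48 h, and PPARG scored 2285.52 and 566.4 at 2 h and 1391.28 and 159.63 at 48 h. The 2 marks thus moved in opposite directions at this site, where the loss of RNAP2 was set by the choice of site. The H3K27ac scores of the DMSO and 48 h libraries did not overlap. A PPARG peak of 2 h also stood at the lost sites chr18:56455877-56457099, chr16:64511808-64513139 and chr2:239297094-239298095.

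**Figure D3:**
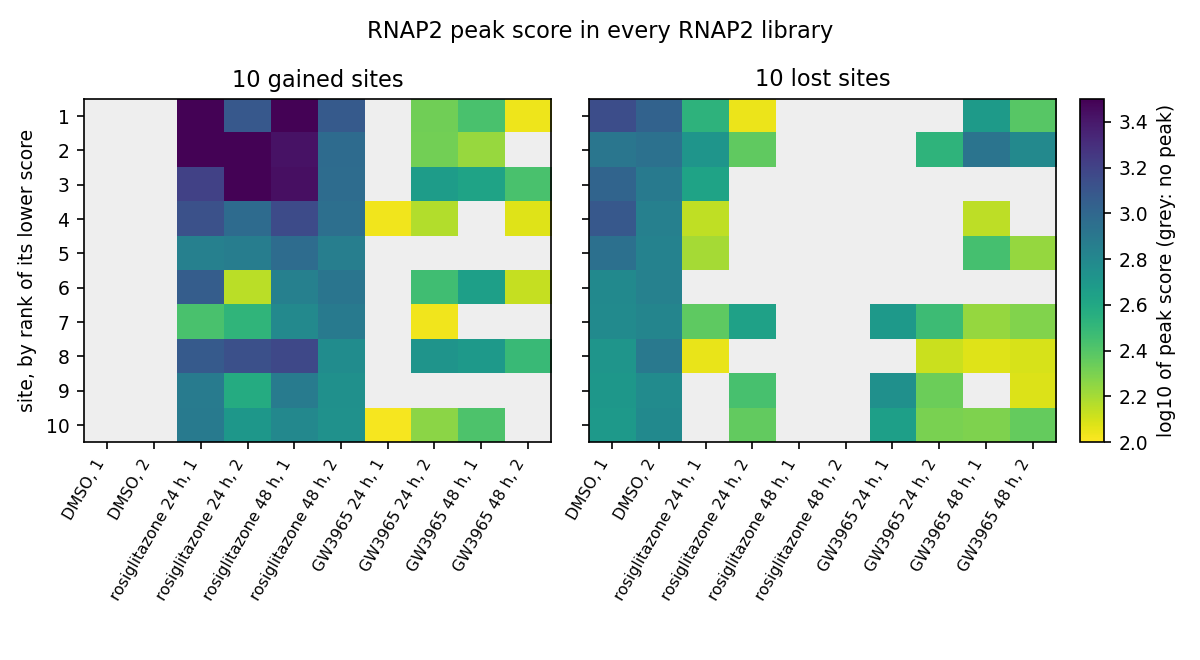
RNAP2 peak score (colour, log10 scale from 2 to 3.5, grey where a library has no peak) at the 10 strongest strictly gained (left) and strictly lost (right) sites, in rank order down the vertical axis, in each of the 10 RNAP2 libraries along the horizontal axis. Gained sites are filled in all 4 rosiglitazone libraries and grey under DMSO. Lost sites are filled under DMSO, grey at 48 h of rosiglitazone and mixed in the other libraries. The DMSO and 48 h rosiglitazone columns follow from the choice of sites.

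With all 4 libraries, a larger share of gained than of lost sites lay close to another of its class. Strictly gained sites lying at most 20 kb apart were joined into runs, which gave 1175 runs, 1043 of them a lone site and 45 of them holding 3 or more sites (189 sites in all). The 2451 strictly lost sites gave 2290 runs, of which 2157 were lone sites and 15 held 3 or more (58 sites). Of strictly gained sites, 25.8% lay within 20 kb of another, against 12% of strictly lost sites. Without DMSO replicate 1 the shares were near each other (23.98% and 23.3%), and without rosiglitazone replicate 2 they were 63.0% and 22.6%. The largest run had 17 sites among the gained and 7 among the lost.

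The largest gained run spanned 221.711 kb at chr8:121591329-121813039. RNAP2 peaks covered 14.0 and 26.7 kb of it under DMSO and 185 and 191 kb at 48 h of rosiglitazone. Coverage was 196 and 131 kb at 24 h of rosiglitazone, 2.34 and 120 kb at 24 h of GW3965 and 111 and 41.8 kb at 48 h of GW3965. The difference between DMSO and 48 h of rosiglitazone follows from the choice of sites. Both rosiglitazone libraries of 24 h were also above both DMSO libraries. However, 2 GW3965 libraries were far above the DMSO libraries too, and the 2 libraries at 24 h of GW3965 differed widely. No PPARG site lay in the run, and 1 H3K27ac site of 48 h and 5 JunD sites did.

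Other gained runs were found with rosiglitazone and hardly with GW3965. The 10 sites at chr6:53363373-53407673 were covered over 0 and 0 kb under DMSO, 27.3 and 19.6 kb at 48 h and 15.1 and 29.8 kb at 24 h of rosiglitazone, and no GW3965 library covered more than 2.63 kb. At chr9:19112576-19127894, a run of 5 sites that holds both chromosome 9 sites described above, coverage was 0 and 0 kb under DMSO, 12.8 and 10.8 kb at 48 h, 13.8 and 12.03 kb at 24 h and at most 1.28 kb under GW3965. The run at chr2:173337137-173369786 had 15.3 and 6.20 kb at 48 h, 24.3 and 30.5 kb at 24 h and no peak in the 2 DMSO or the 4 GW3965 libraries. In each of these 3 runs both rosiglitazone libraries of 24 h, which the choice of sites did not use, stood above the DMSO and GW3965 libraries. The same order of 48 h rosiglitazone over DMSO follows from that choice.

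A further run, at chr2:168862024-168915193, was filled by both drugs. Its 8 sites were covered over 0.931 and 1.06 kb under DMSO, 19.1 and 12.2 kb at 48 h of rosiglitazone and 22.1 and 11.03 kb at 48 h of GW3965. The ranges of the 2 drugs at 48 h overlapped. Of the 12 gained runs of 3 or more sites with the greatest summed site length, 1 held a PPARG site of 48 h, namely chr20:48243510-48335084 with 3 of them.

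The 5 lost runs of greatest summed site length lacked the other marks. The run at chr21:42803563-42822627 was covered over 17.6 and 11.6 kb under DMSO, 8.78 and 0.902 kb at 24 h and 0 and 0 kb at 48 h of rosiglitazone. That at chr3:122405670-122443532 had 21.8 and 8.48 kb under DMSO, 4.16 and 0 kb at 24 h and 0 and 0 kb at 48 h. Runs at chr21:42746137-42775731, chr17:78242617-78263029 and chr12:113378694-113389160 had between 5.94 and 19.7 kb under DMSO and between 0 and 1.07 kb at 48 h. None of these 5 lost runs held a site of H3K27ac, PPARG or JunD, whereas 6 of the 7 next held H3K27ac sites of DMSO, and chr7:100769467-100809568, the sixth, also held PPARG and JunD. Under GW3965 they were also depleted, with 0 to 1.96 kb at 24 h and 0 to 6.91 kb at 48 h, below both DMSO libraries in each run. The GW3965 and rosiglitazone comparisons share the DMSO libraries.

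Across all strictly gained sites, RNAP2 was often already present at 24 h of rosiglitazone. A site of that group overlapped 59.9% of them (57.3 to 62.4), and its libraries taken singly had a peak at 75.3% and 67.3%. At 24 h of GW3965 4.69% had a site, with 9.96% and 29.7% in its single libraries, and at 48 h of GW3965 23.1% had one, with 38.5% and 26.8%. Every rosiglitazone library of 24 h thus lay above every GW3965 library. Kept sites had the same order, though closer together. They had 97.5% and 91.2% in the 24 h rosiglitazone libraries and 84.7% to 89.2% in the GW3965 libraries. A site of 24 h of rosiglitazone overlapped 90.0% of kept and 86.2% of all rosiglitazone sites, more than of strictly gained ones. The share of strictly gained sites with a 24 h site was 39.5% without rosiglitazone replicate 1 of 48 h and 34.7% without replicate 2. Strictly lost sites still had a site at 24 h of rosiglitazone in 22.4% (20.8 to 24.1), against 16.6% and 18.6% at 24 and 48 h of GW3965. Single libraries ranged from 22.0% to 47.1% there, with the 2 libraries of 24 h GW3965 at both ends. Replicate 2 of 24 h rosiglitazone covered 67.0 Mb, more than any other RNAP2 library, and its part in these shares was not tested.

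At PPARG sites of 2 h only, RNAP2 was less frequent in both 48 h rosiglitazone libraries than under DMSO, and at PPARG sites held at both times the groups overlapped. There were 7754 PPARG sites at both 2 and 48 h, 6328 at 2 h only and 563 at 48 h only. At the first class RNAP2 had a peak at 70.0% and 69.6% under DMSO and at 67.6% and 75% at 48 h of rosiglitazone. At the second, RNAP2 was at 63.7% and 64.6% under DMSO and at 48.0% and 59.99% at 48 h of rosiglitazone, both below DMSO. The 4 GW3965 libraries were also below DMSO there, at 45.2% to 54.8%. Replicates 1 and 2 of rosiglitazone differed by more than the distance from replicate 2 to DMSO. The order was not particular to these PPARG sites. At H3K27ac sites of DMSO, RNAP2 was at 77.2% and 83.2% under DMSO and 72.7% and 69.6% at 48 h of rosiglitazone. At H3K27ac sites of 48 h it was at 74.4% and 78.6%, and then 71.7% and 72.0%. At JunD sites the groups overlapped (88.7% and 87.7%, then 79.2% and 88.8%). The third class, PPARG at 48 h only, had 38.5% and 36.1% under DMSO and 35.9% and 42.5% at 48 h.

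Of PPARG sites held at both times, 476 (6.14%) overlapped a gained and 584 (7.53%) a lost RNAP2 site. Of those held at 2 h only, 182 (2.88%) overlapped a gained and 1128 (17.8%) a lost RNAP2 site. Seen from the RNAP2 sites, PPARG of 2 h only stood at 14.1% of lost sites and 13.8% of all DMSO sites. Lost sites thus held it about as often as DMSO sites at large. It stood at 5.62% of gained sites and 12.5% of all rosiglitazone sites. In the strict classes the order at sites held at both times was the opposite, with 217 (2.80%) gained and 96 (1.24%) lost, and at sites of 2 h only it was the same, with 50 (0.790%) gained and 314 (4.96%) lost. At 24 h of rosiglitazone RNAP2 was at 78.1% and 76.0% of the PPARG sites held at both times, above both DMSO libraries, and GW3965 libraries were at 56.2% to 61.3%, below both. The treated groups share the DMSO libraries.

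**Figure D4:**
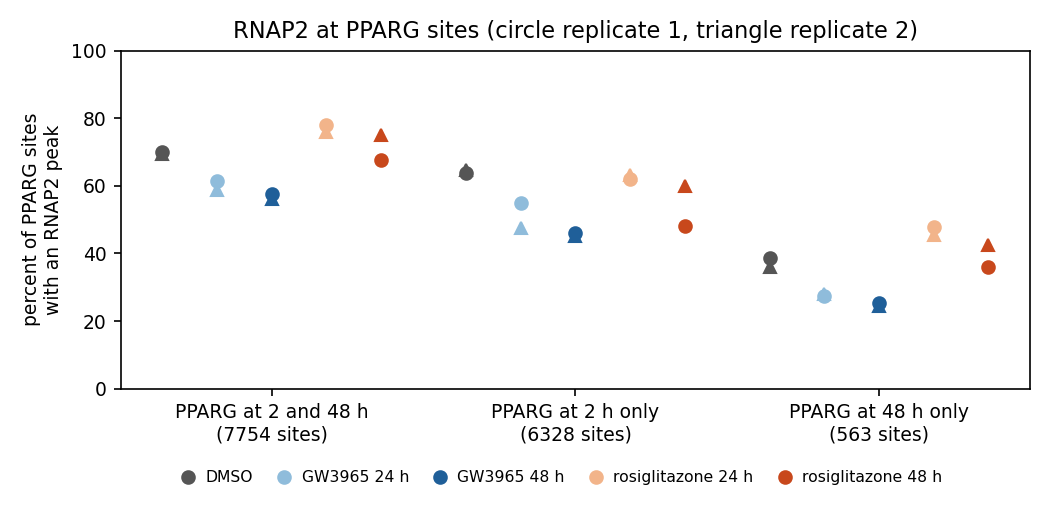
Percent of PPARG sites with an RNAP2 peak (vertical axis) for PPARG sites found at 2 and 48 h, at 2 h only and at 48 h only of rosiglitazone. Colours are the 5 RNAP2 groups, with a circle for replicate 1 and a triangle for replicate 2. At PPARG sites of 2 h only, both 48 h rosiglitazone libraries (48.0% and 59.99%) sit below both DMSO libraries (63.7% and 64.6%).

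Width and score were next compared in the 18182 regions with a peak in all 4 libraries. Width was the length covered by peaks in the region. Each library was centred on its own median, because the median width of these regions was 1481 and 1342 bp under DMSO and 1130 and 1471 bp after rosiglitazone. No region was called wider (0%) or narrower (0%) by limma at a Benjamini-Hochberg adjusted p under 0.05. At an unadjusted p under 0.05 there were 943 regions, 547 wider and 396 narrower, and the smallest adjusted p was 0.180. 

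For the score, 1 of the 18182 regions (0.0055%) was called lower and 0 (0%) higher by limma, with 1258 regions at an unadjusted p under 0.05. That region, chr9:32428693-32436848, was scored 3100 and 3100 under DMSO and 163.48 and 124.72 after 48 h of rosiglitazone. The limma adjusted p was 0.0142. Both DMSO scores are at the caller's ceiling, so in the fit they differ only by the centring of each library. No size of change is given, and the p rests on clipped values. Without centring, 0 regions were called lower. The region kept the call without DMSO replicate 2 but not without DMSO replicate 1. The standard deviation of the log2 score within a group was 0.400 under DMSO and 0.744 after rosiglitazone. Without either rosiglitazone library the fit took its spread from the DMSO libraries alone. More regions were then called whichever was left out, so those calls cannot show whether a result rests on 1 library. Peaks covered 8156 and 7176 bp of the chromosome 9 region under DMSO and 1807 and 805 bp after rosiglitazone. Scores of 1418.75 and 481.22 at 24 h of rosiglitazone and of 1226.34 and 927.9 at 48 h of GW3965 lay between, and 24 h of GW3965 gave none and 204.29. It held no H3K27ac, PPARG or JunD site.

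Scores were lower in both rosiglitazone libraries more often where H3K27ac was lost. Over all 18182 regions, both rosiglitazone libraries were above both DMSO libraries in score at 21.2% and below them at 15.2%. Of the 336 regions on an H3K27ac site lost at 48 h, 23 (6.85%) were above and 123 (36.6%) below, with a median log2 change of -0.42, and of -0.37 in each rosiglitazone library. Of the 2550 regions on a PPARG site of 2 h only, 11.1% were above and 25.3% below, with a median of -0.22, although the 2 libraries gave -0.45 and 0.05. Regions on H3K27ac sites gained at 48 h (1971 regions) and on PPARG sites of 48 h (4589 regions) had medians of 0.08 and -0.02, and there the 2 rosiglitazone libraries went opposite ways, at -0.27 and 0.41 and at -0.33 and 0.32. Among these 4 lists, a median below 0 in both libraries was found only at lost H3K27ac sites, where RNAP2 and H3K27ac share their inputs.

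Regions near a gained site were wider more often than regions at large. Over all regions, both rosiglitazone libraries were wider than both DMSO libraries at 16.8% and narrower at 16.5%. Within 20 kb of a strictly gained site lay 1445 of the regions, and of these 505 (34.9%) were wider and 106 (7.34%) narrower. Their median log2 width change was 0.14, from 0.23 and 0.08 in the single libraries, and their median log2 score change was 0.32, from 0.45 and 0.27. Within 20 kb of a strictly lost site lay 1408 regions, of which 14.1% were wider and 22.5% narrower, with a median of -0.02. Gained sites and widened neighbours were called in the same libraries and are not independent of each other.

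Of the 8 regions with the largest increase in width, chosen after their values were seen, 5 lay within 8 kb of a strictly gained site and the other 3 lay 300.1, 655 and 2155 kb from one. At chr21:36210842-36219593, 2.627 kb from the strongest gained site, peaks covered 2474 and 861 bp under DMSO and 8496 and 7834 bp after rosiglitazone. At chr8:121576977-121583901, 7.428 kb from the nearest gained site, they covered 1291 and 1264 bp and then 6819 and 6888 bp (log2 change 2.55, SE 0.19, limma adjusted p = 0.180). At chr2:173371510-173379374, 1.724 kb from a gained site, they covered 1599 and 2224 bp and then 7819 and 6375 bp. At chr20:624908-630153, one of the distant ones, they covered 1264 and 1150 bp and then 5219 and 4369 bp. The groups did not overlap in any of these 4, which the choice of the largest increases favours. Over all 18182 regions, both rosiglitazone libraries were wider than both DMSO libraries at 16.8%. H3K27ac at the first scored 146.21 and 335.13 under DMSO and 1132 and 2142.18 at 48 h, and the other 3 had no H3K27ac peak.

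The lost run at chr21:42803563-42822627 lay between 2 regions that kept a peak in all 4 libraries but were narrower after rosiglitazone. The first, chr21:42797321-42802778, was covered over 5391 and 4891 bp under DMSO and 836 and 944 bp after rosiglitazone, and the second, chr21:42823146-42833780, over 10635 and 7907 bp and then 1358 and 1373 bp. The RNAP2 score of the second was 3100 and 2378.07 and then 506.99 and 135.47, and the H3K27ac score of the first was 352.64 and 1522.01 and then 146.67 and 245.37. Neither passed the limma test (adjusted p = 0.180 for each).

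When all 10 RNAP2 libraries entered 1 limma fit, so that the spread was estimated from 5 groups, 7 of the 12265 regions with a peak in every library (0.0571%) were called wider at 48 h of rosiglitazone and 3 (0.0245%) narrower. The calls rested on the compared libraries, since none was made without DMSO replicate 1, DMSO replicate 2 or rosiglitazone replicate 1, while 14 wider and 22 narrower regions were called without rosiglitazone replicate 2. The region with the largest increase, chr7:134211724-134221385, was covered over 1753 and 1612 bp under DMSO and 9487 and 8427 bp at 48 h of rosiglitazone, a log2 change of 2.54 (SE 0.30, limma adjusted p = 0.0469). It was already 6677 and 7989 bp at 24 h of rosiglitazone and 1907 and 1425 bp at 48 h of GW3965. It held PPARG sites of both times and H3K27ac, whose score went from 157.62 and 342.55 under DMSO to 2383.88 and 1613.01 at 48 h, and a strictly gained site lay 4.541 kb away.

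The other widened regions differed in what GW3965 did there. At chr13:110428858-110434625 (log2 change 1.86) and chr11:129991175-129996171 (1.68, SE 0.12, limma adjusted p = 0.00807, with PPARG, H3K27ac and JunD sites) the change at 48 h of GW3965 was -0.11 and -0.05. At chr1:6645367-6651886 (1.65), chr21:44510707-44512975 (1.55) and chr15:64751863-64754859 (1.42) it was 1.78, 1.63 and 1.21, and neither these 3 nor the chromosome 13 region held a PPARG site. At chr1:201429544-201434037 (1.18, with PPARG, H3K27ac and JunD sites) it was 0.60. The difference between the drugs passed the limma test at the regions on chromosomes 7, 13 and 11 and not at the other 4 (adjusted p between 0.160 and 0.901). In each of the 7, both rosiglitazone libraries of 48 h were wider than both DMSO libraries, which the call itself favours.

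The narrowed regions were chr17:55161595-55164988 (-1.15), chr14:105934352-105936822 (-1.50) and chr1:204041758-204044907 (-1.92). At the last, peaks covered 3014 and 2631 bp under DMSO and 696 and 666 bp at 48 h of rosiglitazone, and 730 and 867 bp at 24 h. The first and second were not narrower at 24 h, with changes of -0.04 and -0.10. In the same fit, 3 regions (0.0245%) were called wider and 1 (0.00815%) narrower at 24 h of rosiglitazone, 13 (0.106%) wider and 46 (0.375%) narrower at 48 h of GW3965, and 81 (0.66%) wider and 16 (0.13%) narrower under rosiglitazone than under GW3965 at 48 h. All 3 narrowed regions had H3K27ac sites under DMSO and at 48 h of rosiglitazone and had no PPARG site.

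**Figure D5:**
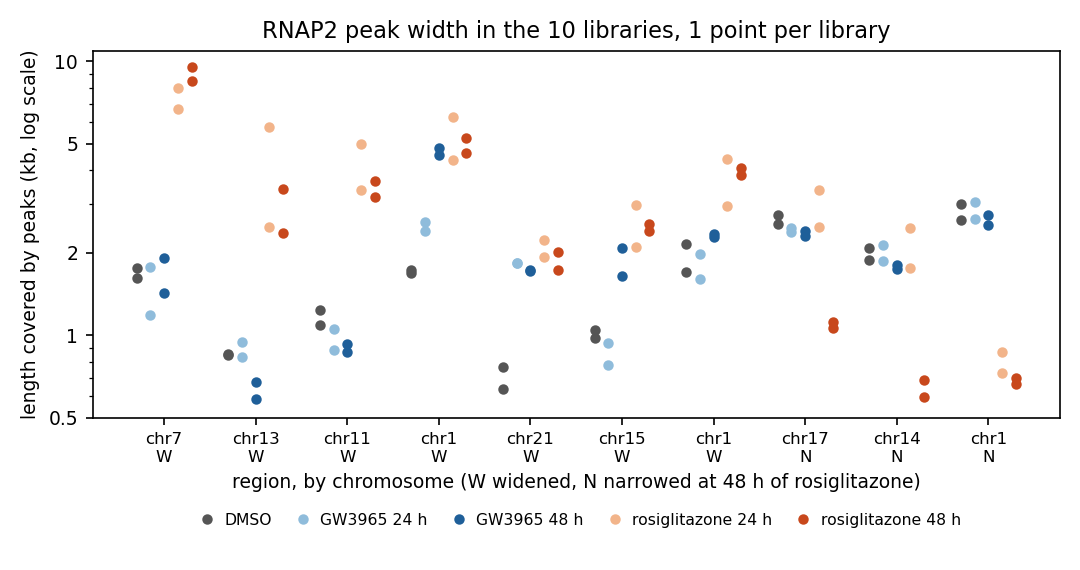
Length covered by RNAP2 peaks (vertical axis, kb, log scale) in the 7 widened (W) and 3 narrowed (N) regions called by the fit over 10 libraries, with 1 point per library and a colour per group. The 48 h rosiglitazone points lie above both DMSO points in the widened and below them in the narrowed regions. Among the widened regions, the 48 h GW3965 points also lie above both DMSO points on chromosomes 21 and 15 and in both regions of chromosome 1.

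RNA sequencing of 48 h cultures, with 4 libraries each of DMSO and rosiglitazone and 32312041 to 42120223 counts per library, gave the RNA levels of the polymerase subunit genes. It does not measure the protein. The cells expressed the 9 epithelial markers checked at a summed 17703 to 19792 CPM (counts scaled to a common library total), with KRT8 and KRT18 the largest. Within that sum, mean VIL1 went from 151 to 66.8 CPM and CDX2 from 11.2 to 6.20 with rosiglitazone. KRT20 went from 344 to 1016 CPM and CEACAM5 from 16.9 to 47.6. Markers of fibroblasts, immune and endothelial cells summed to 12.6 to 17.6 CPM. COL1A1 was at 4.87 to 7.03 CPM and CD68 at 6.90 to 10.5, with COL1A2, PTPRC and CD3E at 0. Of 22470 genes tested by edgeR, 447 (1.99%) were called higher and 870 (3.87%) lower, which took an adjusted p under 0.01 together with a 2-fold or larger change. No peak was assigned to a gene, so RNA and RNAP2 are described apart.

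None of the 11 RNAP2 subunits tested passed both limits, and at an adjusted p under 0.01 of any size, which 25.5% of all genes reached, 2 did. POLR2E, a subunit shared by the 3 nuclear polymerases, rose from 143 ± 7.02 to 204 ± 10.3 CPM (SD, n = 4 each), a log2 change of 0.51 (SE 0.06, edgeR adjusted p = 1.11e-06). POLR2L, another shared subunit, rose by 0.34 (SE 0.06, edgeR adjusted p = 0.000146). The median over the 11 was 0.12, but -0.06 when libraries were scaled by their size alone, a scaling that moved the median of all genes from -0.01 to -0.19.

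Of 22 initiation, pausing and elongation factors, 0 passed both limits by edgeR and 7 reached an adjusted p under 0.01, 6 of them higher, a share not far above the 25.5% of all genes. HEXIM1, which holds the elongation kinase P-TEFb inactive, fell by 0.45 on the log2 scale (SE 0.07, edgeR adjusted p = 8.42e-05), from 16.6 ± 0.490 to 12.2 ± 0.256 CPM. SUPT5H, a subunit of the pausing factor DSIF, rose by 0.34 (SE 0.06, edgeR adjusted p = 0.000114), and GTF2F2, a subunit of the initiation factor TFIIF, rose by 0.52 (SE 0.10, edgeR adjusted p = 0.000283). The list had a median of 0.09, and of -0.10 under scaling by library size alone. All 7 changes were under 2-fold.

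Over all genes tested, 1.99% were called higher and 3.87% lower. Of 33 PPARG target and fatty acid genes tested, 10 were higher and 0 lower, with a median log2 change of 0.52. Among nuclear receptors and cofactors 4 of 16 were higher and 0 lower, among AP1 subunits 1 of 8 was higher and 0 lower, and of 16 housekeeping genes none passed. Goblet and enterocyte genes split into 5 higher and 9 lower of 19, intestinal lineage factors into 1 and 5 of 17, ion transport and NADPH oxidase genes into 1 and 5 of 14, Wnt targets and antagonists into 0 and 3 of 10, and immediate early and MAPK feedback genes into 2 and 3 of 14. Cell cycle genes (26) and glycolysis genes (20) each had 0 higher and 1 lower, near the share of all genes.

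Genes of the interferon response, a list added after the peaks and RNA had been examined, were mostly lower, by amounts under 2-fold in all but 2 of those that passed. Of 33 tested, 2 passed both limits, 28 had a change below 0 and 18 were lower at an adjusted p under 0.01 (54.5%, against 13.1% of all genes), while 3 were higher. Since the list was chosen with these data known, this difference from all genes is a description and not a test. MX1, an antiviral GTPase, fell from 2.89 ± 0.398 to 1.31 ± 0.427 CPM (log2 change -1.14, SE 0.21, edgeR adjusted p = 0.000253), and OAS2, an oligoadenylate synthetase, from 1.51 ± 0.457 to 0.400 ± 0.219 CPM (-1.91, SE 0.37, edgeR adjusted p = 0.000377). Both were low in every library. PARP14 fell by 0.58 on the log2 scale (SE 0.05, edgeR adjusted p = 5.37e-08), with 49.8 to 52.5 CPM in the DMSO and 32.9 to 36 CPM in the rosiglitazone libraries. IRF7, a transcription factor of the pathway, went the other way and rose by 0.59 (SE 0.09, edgeR adjusted p = 3.52e-05), as did OASL, by 0.94 (SE 0.19, edgeR adjusted p = 0.000601). The median of the list was -0.58, and -0.76 under scaling by library size alone.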

How the data were processed

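Peaks were called by the authors for each library against an input library, with Bowtie and MACS on hg19 per the submitters' processing notes, versions not given in the sources used here. Each deposited list gives positions and a score (minus 10 log10 of the p-value, 100 or more), and read depth is unknown. The deposited RNA tables hold the authors' raw counts per gene (TopHat and Cufflinks are named in the notes), and the total counts per library set the precision of each gene's level.

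Sites, overlaps of at least 1 bp, Wilson 95% intervals and runs (gaps up to 20 kb) were computed in Python 3.11.15 with scipy 1.17.1. Log2 width and log2 score, centred on each library's median, were tested with limma 3.58.1, and counts with edgeR 4.0.16 (quasi-likelihood, filterByExpr, TMM), in 1 fit over the 16 libraries of 48 h, with Benjamini-Hochberg adjustment. CPM were computed from those counts. Both tests were tested on simulated data.

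The text names the 10 strictly gained and 10 strictly lost sites with the highest lower score, and up to 8 called regions a direction by change in width. The members, lists and tests were chosen with earlier results of these data known, and the lists of polymerase subunits, initiation and elongation factors and interferon genes were added after the data were seen. Alternatives were the overlap, a score of at least 200, equal peak numbers, other scalings and filters, DESeq2 1.42.0 and leaving out each library. Gene positions and DNA sequence of hg19 were not used here, so no peak was assigned to a gene and no sequence is shown. The value of 1 gene is not reported here.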

Additional observations from a re-analysis of the deposited data

Results flagged for a closer look

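Of the 10 regions whose RNAP2 width was called at 48 h of rosiglitazone in the fit over 10 libraries, 6 also differed between 48 h of rosiglitazone and 48 h of GW3965, by the test of that difference in the same limma fit. The width was larger under rosiglitazone at chr7:134211724-134221385 (log2 difference 2.24, adjusted p = 0.0219), chr13:110428858-110434625 (1.97, adjusted p = 0.00999) and chr11:129991175-129996171 (1.73, adjusted p = 0.00556). It was smaller under rosiglitazone at chr17:55161595-55164988 (-1.31, adjusted p = 0.0107), chr14:105934352-105936822 (-1.67, adjusted p = 0.00605) and chr1:204041758-204044907 (-2.15, adjusted p = 0.00605). In all 6 the 2 rosiglitazone libraries lay on 1 side of the 2 GW3965 libraries. Over all 12265 regions this contrast called 81 wider (0.66%) and 16 narrower (0.13%). The regions were chosen with the same rosiglitazone libraries that enter this difference, so the 2 tests are not independent, and none of the 10 was called without DMSO replicate 1, DMSO replicate 2 or rosiglitazone replicate 1. Each drug group had an input of its own. In RNA, 1 of the 24 groups of 4 libraries looked at had a library far from the rest, where chance gives about 1 in 20. OASL had 10.1, 7.31, 10.4 and 10.1 CPM in DMSO replicates 1 to 4, and the gap from replicate 2 to its nearest neighbour was 0.908 of the group's range.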

How the results depend on the processing

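Of the counts and shares that answer a comparison, 90 alternatives stayed close to the reported value and 109 moved, and the cause was not tested where they moved. With a score of at least 200, 2021 sites were gained and 4970 lost, 44.9% of gained sites had H3K27ac, 61.4% had RNAP2 at 24 h, 10.0% of lost sites had JunD, and 0 regions had a lower score. With no peak allowed in either library of the other group these became 1406, 2451, 27.5%, 59.9% and 7.997%. Leaving out 1 library at a time gave 2093 to 11867 gained and 4731 to 13857 lost sites, 23.0% to 35.9% of gained sites with H3K27ac, 6.13% to 19.1% with PPARG at 48 h, 8.39% to 23.7% with PPARG at 2 h, 40.6% to 63.6% with RNAP2 at 24 h and 5.79% to 16.01% of lost sites with JunD. In the strict classes, recomputed without each library after seeing the data, there were 2093 to 7640 gained and 4229 to 5679 lost sites. Of the gained, 8.44% to 17.8% had H3K27ac under DMSO and 14.3% to 33.5% at 48 h, 4.90% to 19.1% had PPARG at 48 h, 1.81% to 6.07% had PPARG at 2 h and not at 48 h, 34.7% to 63.6% had RNAP2 at 24 h of rosiglitazone and 23.98% to 63.0% lay within 20 kb of another. H3K27ac of 48 h stood at 55.6% to 67.4% of those on PPARG and 12.1% to 26.5% of those off it. Of the lost, 26.2% to 48.1% had H3K27ac under DMSO and 22.1% to 43.2% at 48 h, 3.06% to 9.33% had PPARG at 48 h, 8.74% to 17.5% had PPARG at 2 h and not at 48 h, 17.9% to 42.4% had RNAP2 at 24 h and 16.98% to 23.3% lay within 20 kb of another. Leaving out 1 library also gave 0 to 14 widened and 0 to 22 narrowed regions, both of the larger numbers in the fit over 10 libraries, and 0 to 1165 regions with a higher and 0 to 1500 with a lower score. In those reduced fits the lone library of a group is assumed to vary like the other group. The fit over all 10 libraries called 7 widened, 3 narrowed and 0 lower scores, and no centring or exactly 1 peak in each library called 0 lower scores. In RNA, a fold change of at least 1.5 gave 1076 higher and 1662 lower genes, leaving out 1 library 398 to 499 and 738 to 1010, and scaling by library size alone 301 and 1265, which moved the share of higher calls from 33.9% to 19.2%. The log2 changes of POLR2L and SUPT5H were then 0.16 each and missed the adjusted p limit, and the other named genes kept their call in every setting.

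The replicate numbers did not pair the samples. Same-numbered RNAP2 libraries deviated from their group means with correlations of -0.31 in width and -0.46 in score, and same-numbered RNA libraries with -0.04, 0.05, 0.17 and -0.05. With the replicate number as a block, 9 regions had a higher and 3 a lower score, 0 changed in width, and 441 genes were higher and 856 lower. With the numbers crossed in 1 group, an alternative chosen after seeing the data, 17 had a higher and 5 a lower score. The fit over 10 libraries with each library left out was also added after seeing the data. Depth of the ChIP libraries is unknown, and 2 libraries a group limit every peak comparison.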
